A study of Homo sapiens with 12 samples.

Results

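The immunoproteasome and peptide loading genes of the MHC class I pathway were followed across all 12 libraries: PSMB8, PSMB9, PSMB10, PSME1, PSME2, TAP1, TAP2, TAPBP, ERAP1 and ERAP2. They are 10 of the 50868 gene identifiers in the count table and were taken by the symbol of their Ensembl identifier, and each symbol had 1 identifier. In MKN28 control cells PSMB8 was all but unread (1 count over 3 libraries), ERAP2 had 22 counts and PSMB9 had 12 to 40 counts a library, whereas MKN45 control libraries held at least 190 counts of each of the 10 genes. With ZNF165 knocked down in MKN28, PSMB9, PSMB10, PSME1 and TAP2 rose among the 8 genes tested, where 40.8% of all genes passed, 19.2% as higher. Of these 4, only PSMB10 passed with each library left out in turn. PSMB9 and PSME1 no longer passed with the trend over transcript length and GC content removed. With ZNF165 overexpressed in MKN45, no gene of the 10 passed the test, where 1.13% of all genes passed.

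MHC class I molecules show short peptides on the cell surface to cytotoxic T cells. Most of these peptides are cut by the proteasome, in which PSMB8, PSMB9 and PSMB10 can take the places of the constitutive catalytic subunits PSMB5, PSMB6 and PSMB7 to form the immunoproteasome. PSME1 and PSME2 build the PA28 activator that caps the core particle, TAP1 and TAP2 form the transporter that carries peptides into the endoplasmic reticulum, TAPBP encodes tapasin, which holds the class I molecule next to that transporter, and ERAP1 and ERAP2 trim the peptides inside. Leukocytes make the immunoproteasome constitutively, and most other cells make it after interferon gamma.

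MKN28 and MKN45 are established gastric cancer cell lines, and MKN28 is listed in registries of misidentified lines as a derivative of another gastric line. Each of the 4 groups held 3 libraries. Control cells of both lines, genotype WT in the labels, carried LV-Control (LV is the usual short form of lentivirus); the MKN28 knockdown carried LV-ZNF165-siRNA and the MKN45 overexpression LV-ZNF165. In their descriptions the siRNA of MKN28 knockdown replicate 2 is that of ZNF166 and the siRNA of replicate 3 that of ZNF167; the genotype field, a ZNF165 knockdown in all 3, was followed. No time after infection, promoter, clone or culture of origin is given, so p-values measure the spread between libraries, which may be technical.

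The gene starts share a short sequence. The core of the interferon-stimulated response element (ISRE), GAAA and GAAA with any 2 bases between them, on either strand, to which interferon regulatory factors are known to bind, was searched in the RefSeq windows (GRCh38.p14) from 250 bases before to 50 after each listed start. It lay in at least 1 window of 9 of the 10 genes, in 9 of their 14 windows, against 3.57% of all 35116 windows of the same length. The 60-base stretches below hold these cores and are shown because they are what the 9 genes have in common at their starts; each is written 5′ to 3′ on the gene's own strand, with the core, or overlapping cores, in capitals. A core that reads TTTC first lies on the opposite strand.
TAP1: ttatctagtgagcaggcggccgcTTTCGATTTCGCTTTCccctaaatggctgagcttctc
TAP2: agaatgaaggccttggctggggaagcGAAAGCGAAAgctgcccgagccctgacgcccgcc
TAPBP: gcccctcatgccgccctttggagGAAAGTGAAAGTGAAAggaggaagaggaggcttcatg
PSMB8: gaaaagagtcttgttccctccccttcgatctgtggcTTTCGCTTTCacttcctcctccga
PSMB10: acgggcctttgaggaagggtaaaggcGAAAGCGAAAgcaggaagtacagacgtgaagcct
PSME1: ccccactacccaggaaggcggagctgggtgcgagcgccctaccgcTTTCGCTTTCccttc
PSME2: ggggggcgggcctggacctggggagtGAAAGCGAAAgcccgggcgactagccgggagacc
ERAP1: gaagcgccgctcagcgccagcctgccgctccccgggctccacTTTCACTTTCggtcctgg
ERAP2: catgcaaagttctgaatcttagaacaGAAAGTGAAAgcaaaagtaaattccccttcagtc

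The same decamer, GAAAGCGAAA on one strand or the other, stood in TAP2, PSMB8, PSMB10, PSME1 and PSME2 and was the second core of TAP1. The stretches lie at chr6:32853802-32853861 (TAP1), chr6:32838764-32838823 (TAP2), chr6:33314062-33314121 (TAPBP), chr6:32844028-32844087 (PSMB8), chr16:67936838-67936897 (PSMB10), chr14:24146605-24146664 (PSME2) and chr5:96807926-96807985 (ERAP1), all on the minus strand, and at chr14:24136154-24136213 (PSME1) and chr5:96876444-96876503 (ERAP2) on the plus strand. Relative to the listed start the cores began between 134 bases before it in TAP1 and 6 bases after it in PSME1. PSMB9, whose window held none, starts 487 bases from TAP1 on the other strand. PSMB5, the constitutive counterpart of PSMB8, had no ISRE core in its windows, like most windows. No windows of PSMB6 or PSMB7 were available. The GAS element, TTCNNNGAA, matched in windows of TAP1, PSMB8 and also PSMB5 (7.66% of all windows), and the NF-kB motif in those of TAP1, TAPBP and ERAP1 (11.3% of all windows); ISRE and NF-kB matches did not share bases in these windows. A match says that the letters are there, and none of these libraries measured binding.

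TAP1, TAP2, PSMB8 and PSMB9 are neighbours in the MHC on chromosome 6, and TAPBP lies further along that chromosome. In GENCODE 29 (GRCh38), TAP2 lies at 32821833 to 32838780, PSMB8 at 32840717 to 32844703, TAP1 at 32845209 to 32853978 and PSMB9 at 32844136 to 32859585, with TAPBP at 33299694 to 33314387; PSMB9 is on the plus strand and the others on the minus strand. PSMB10 lies on chromosome 16 (67934502 to 67937087, minus), PSME1 and PSME2 on chromosome 14 (24136158 to 24138967, plus, and 24143362 to 24147570, minus), ERAP1 and ERAP2 on chromosome 5 (96760810 to 96808100, minus, and 96875939 to 96919716, plus). The annotated PSMB9 gene spans the whole of TAP1 on the other strand and shares 568 bases with PSMB8, and ERAP1 shares 18786 bases with CAST. TAP2 and PSMB10 lie under readthrough genes of their own strand, and ERAP2 under an antisense gene. The strand setting of the counting is not given in the sources used here, so reads of such neighbours cannot be told apart. The balance of PSMB9 to TAP1 differed between lines: in MKN28 control replicate 1 it had 12 counts where TAP1 had 458, and in MKN45 control replicate 1 it had 349 where TAP1 had 1407.

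Libraries held 12075813 to 19548445 counts, and 0 counts allow a level of up to 0.153 to 0.248 CPM (the count scaled to a common library total), that of 3 counts, by counting error alone. ZNF165 had 262, 186 and 287 counts in MKN28 controls against 74, 40 and 22 in the knockdown, and 156, 140 and 277 in MKN45 controls against 2115, 1977 and 1909 in the overexpression. Some libraries stood apart. Knockdown replicate 1 correlated with replicates 2 and 3 at Pearson's r of 0.87 and 0.887 across genes, whereas replicates 2 and 3 correlated at 0.978. MKN45 control replicate 2 correlated with its group at 0.932 and 0.94. MKN28 control replicate 2 correlated with replicates 1 and 3 at 0.96 and 0.936, whereas those 2 correlated at 0.979. Across genes, the Spearman correlation of CPM with transcript length was -0.155 to -0.0604 in the knockdown and 0.144 to 0.248 in its controls, and that with GC content 0.0866 to 0.405 against -0.105 to 0.121. MKN45 control replicate 2 lay at 0.0307 for length, against 0.196 and 0.14 in replicates 1 and 3. MKN28 control replicate 2 lay at 0.121 for GC content, against -0.0494 and -0.105 in replicates 1 and 3. Epithelial markers were read in every library (7 of 7 above 0), PTPRC, the pan-leukocyte marker, had 0 to 3 counts, and endothelial markers summed to at most 2.1 CPM.

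Levels of the 10 genes were set side by side per kilobase of transcript, as CPM scaled by trimmed mean of M-values (TMM) over all 12 libraries. In MKN28 controls the order from the highest mean was TAPBP at 76.9 ± 54.3, PSME1 at 69.3 ± 17.0, PSME2 at 44.3 ± 11.8, TAP2 at 42.0 ± 9.64, TAP1 at 11.8 ± 9.04, PSMB10 at 7.83 ± 4.30, ERAP1 at 4.78 ± 1.19, PSMB9 at 1.40 ± 1.02, ERAP2 at 0.0601 ± 0.0183 and PSMB8 at 0.0135 ± 0.0235 (SD, n = 3). Neighbours in that order had overlapping ranges except TAP2 above TAP1, ERAP1 above PSMB9, PSMB9 above ERAP2 and ERAP2 above PSMB8. In MKN45 controls PSMB8 held the second place. There the order was PSME1 at 132 ± 32.1, PSMB8 at 104 ± 23.6, TAPBP at 83.7 ± 4.90, PSME2 at 75.2 ± 15.7, TAP2 at 30.4 ± 1.92, PSMB9 at 26.6 ± 5.39, TAP1 at 22.9 ± 2.63, PSMB10 at 21.3 ± 5.83, ERAP2 at 11.1 ± 5.61 and ERAP1 at 4.37 ± 1.87, and the only neighbours whose ranges were apart were PSME2 and TAP2. In the knockdown PSME1 led at 189 ± 82.2 per kilobase, followed by TAP2 at 118 ± 58.0, PSMB10 stood at 63.0 ± 42.0, and ERAP2 was last. In the overexpression PSME1 led at 87.2 ± 4.66, TAPBP followed at 68.5 ± 8.36 and PSMB8 at 61.2 ± 4.77, and ERAP1 was last at 5.57 ± 0.598.

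**Figure D1:**
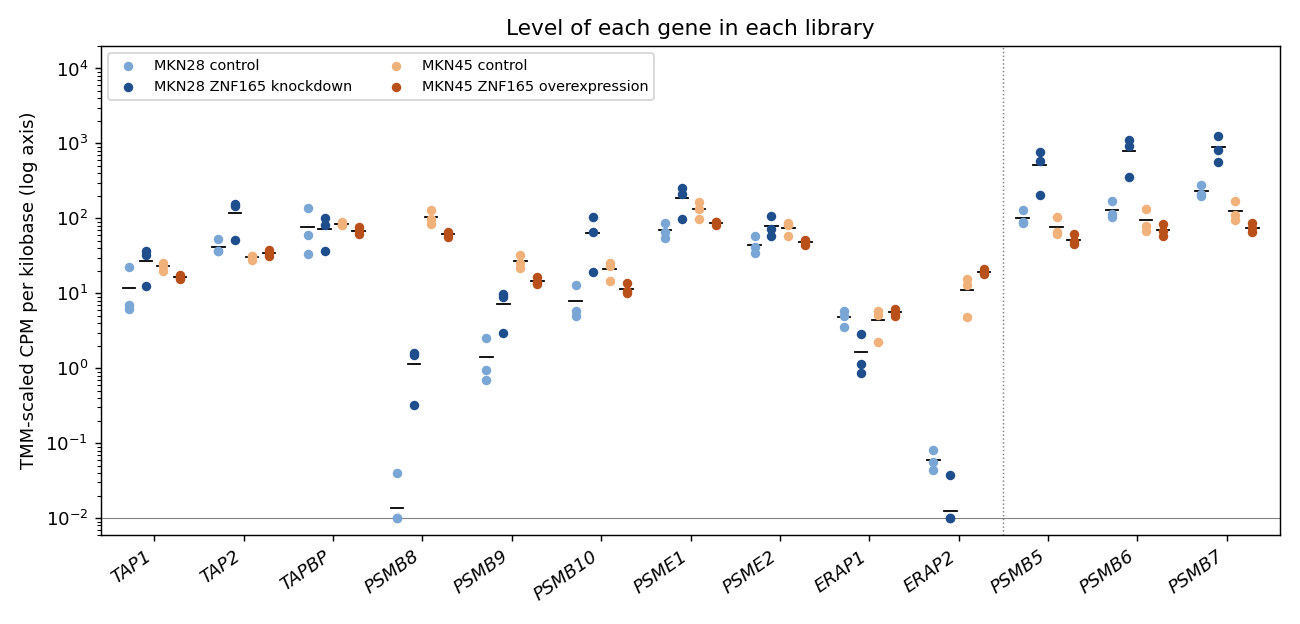
TMM-scaled CPM per kilobase (log axis) of the 10 genes and, right of the dotted line, the constitutive catalytic subunits, 1 point per library and a bar at each group mean; libraries with 0 counts, and means below it, are drawn at the grey line at 0.01. PSMB8, PSMB9 and ERAP2 separate the lines most, and the constitutive subunits PSMB5, PSMB6 and PSMB7 are highest in the MKN28 knockdown.

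The control cells of the lines were compared to see how far the pathway is read without any change of ZNF165. Of the 10 genes, PSMB8, PSMB9, PSMB10, PSME1 and ERAP2 were higher in MKN45, none was lower, and 5 did not pass (edgeR's quasi-likelihood test at a Benjamini-Hochberg adjusted p under 0.05). Over all genes tested 41.8% passed, 21.4% higher and 20.4% lower in MKN45. At an unadjusted p under 0.05 it was 7 higher and 0 lower (24.9% of all genes in each direction), and DESeq2, which called 44.7% of all genes, also called 0 lower. Over DESeq2 and the other settings that left out no library, 4 to 7 of the 10 were higher. The MKN45 libraries lay above all MKN28 libraries at 6 genes and below them at 1 (TAP2), against 26.9% and 25.4% of all genes, 52.3% together. The median log2 difference of the 10 genes was 0.97, against -0.04 over all genes. PSMB8 and ERAP2 passed the filter on low counts only through MKN45, so their call was bound to be a difference.

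PSMB8, which replaces PSMB5, had 1, 0 and 0 counts in MKN28 controls and 1943, 2268 and 1937 in MKN45 controls. The groups lay far apart, and the ratio of the summed counts over library totals was 6737 (exact 95% interval of the counting error 1209 to 266100). PSMB9, which replaces PSMB6, had 12, 40 and 16 counts against 349, 393 and 351. Its scaled level was 1.23 ± 0.844 CPM in MKN28 and 23.9 ± 6.01 CPM in MKN45, 19.3-fold higher (log2 4.27, SE 0.53, edgeR adjusted p = 4.246e-05). PSMB10, which replaces PSMB7, differed less: 8.17, 17.0 and 7.13 CPM in MKN28 against 19.9, 37.6 and 31.6 CPM in MKN45, 2.76-fold higher (edgeR adjusted p = 0.0163). The sequence of the 3 subunits by their difference was thus PSMB8, PSMB9 and PSMB10, while none of the constitutive subunits passed, with log2 differences of -0.39 for PSMB5, -0.45 for PSMB6 and -0.85 for PSMB7 (edgeR adjusted p of 0.3675, 0.3484 and 0.0587).

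ERAP2 had 10, 5 and 7 counts in MKN28 controls and 1804, 424 and 1305 in MKN45 controls, a ratio over library totals of 176 (exact 95% counting interval 116 to 281). Its relative ERAP1 did not separate the lines (31.1, 21.2 and 38.5 CPM against 35.2, 14.8 and 31.1 CPM, edgeR log2 difference -0.16). PSME1 was 1.93-fold higher in MKN45 (79.3 ± 15.8 against 153 ± 43.5 CPM, edgeR adjusted p = 0.0351), and its partner PSME2 lay higher in all 3 MKN45 libraries without passing (log2 difference 0.78, edgeR adjusted p = 0.0735). TAP1 overlapped between lines (24.1, 71.9 and 21.8 CPM against 77.5, 90.0 and 65.7 CPM, edgeR adjusted p = 0.0959). TAP2 was the only gene of the 10 lying lower in all 3 MKN45 libraries (105, 145 and 109 against 86.6, 85.0 and 88.1 CPM, edgeR adjusted p = 0.2285), and tapasin differed by a log2 of 0.14. The labels do not say whether replicate numbers pair the control libraries of the lines. With a replicate block as an alternative, TAP1 (log2 1.20, edgeR adjusted p = 0.00807) and PSME2 (0.77, edgeR adjusted p = 0.0128) passed too. The calls of PSMB10 ended without MKN28 control replicate 1 (edgeR adjusted p = 0.0867) or 3 (0.0662), and that of PSME1 without either of these (0.1203 and 0.1219), without MKN45 control replicate 2 (0.0882) or 3 (0.0855), when all 12 libraries were fitted together (0.0692), and with the trend over transcript length and GC content removed (log2 0.34, 0.1527).

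Of the 6 leukocyte markers 2 were tested between the control lines, 1 lower and 1 higher in MKN45. CORO1A, an actin-binding protein, was 38.5-fold lower in MKN45 (504 to 1467 counts in MKN28 and 10 to 34 in MKN45, edgeR adjusted p = 3.466e-05). LAPTM5, a lysosomal membrane protein of leukocytes, had 10, 5 and 5 counts in MKN28 and 25, 28 and 23 in MKN45, 4.54-fold higher (edgeR adjusted p = 0.006475). It passed the filter on low counts only through MKN45, so its call was bound to be a difference. The 6 markers summed to 30.2 to 79.1 CPM in MKN28 controls, nearly all from CORO1A, and to 2.00 to 4.11 CPM in MKN45 controls. PTPRC had 0 counts in all 6 MKN45 libraries. The part of leukocytes in the difference between lines was not tested. NLRC5, the transactivator of class I genes, was 4.68-fold higher in MKN45 controls (2.32 ± 0.183 against 10.9 ± 0.762 CPM, edgeR adjusted p = 0.000562) and IRF1, an interferon regulatory factor, 2.27-fold higher (edgeR adjusted p = 0.0443). SOCS1, an inhibitor of cytokine signalling, was 11.1-fold lower in MKN45 (13.9 ± 7.19 against 1.25 ± 0.343 CPM, edgeR adjusted p = 0.000149).

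**Figure D2:**
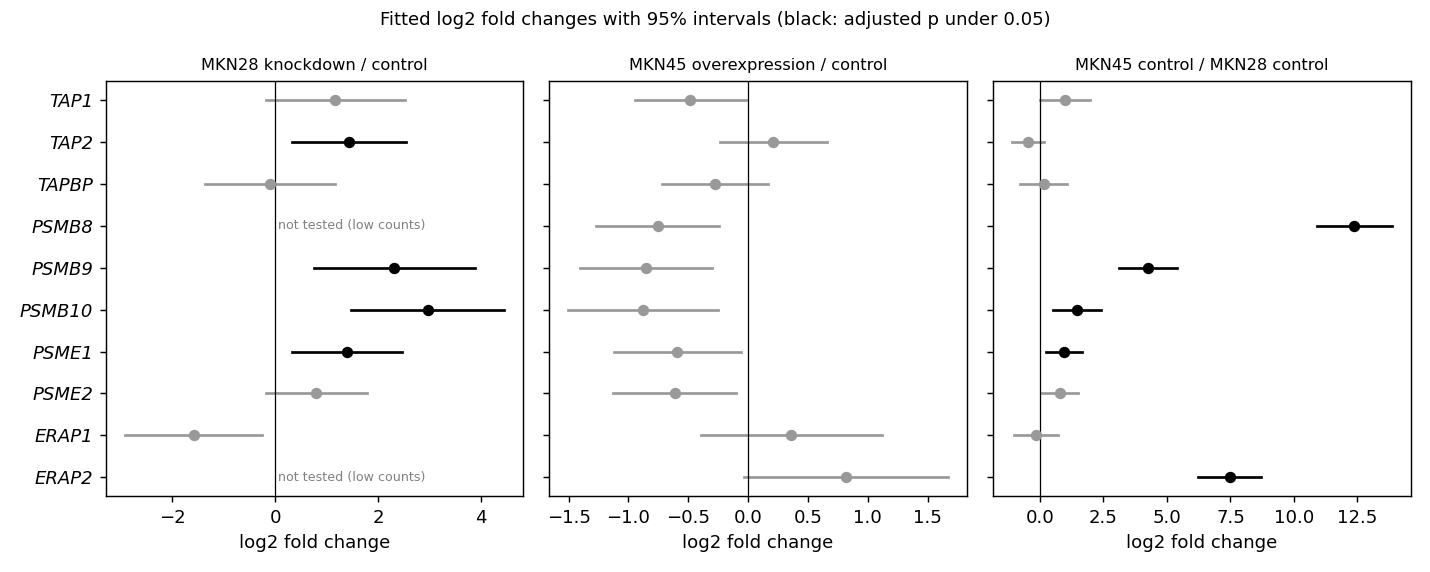
Fitted log2 fold changes (points) with 95% intervals (lines) of the 10 genes in each comparison, black where the edgeR adjusted p is under 0.05; the horizontal scales differ between panels. PSMB8 and ERAP2 were not tested in MKN28. In the overexpression panel PSMB8, PSMB9, PSMB10, PSME1, PSME2 and TAP1 have intervals wholly below 0, and none passed after adjustment.

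The knockdown comparison asks what the pathway does in MKN28 with less ZNF165. Of the 10 genes, 8 passed the filter on low counts: PSMB9, PSMB10, PSME1 and TAP2 rose, none fell, and TAP1, TAPBP, PSME2 and ERAP1 did not pass (edgeR). Of all genes tested, 40.8% passed, 19.2% higher and 21.6% lower. At an unadjusted p under 0.05 it was 4 higher and 1 lower (23.7% and 27.2% of all genes), and DESeq2, which called 48.8% of all genes, called 1 lower, ERAP1. Apart from fits with 1 library left out, no setting, DESeq2 included, gave more than 5 higher. The median log2 fold change of the 8 was 1.28, against -0.20 over all genes. The knockdown libraries lay above all controls at 5 genes, the 4 that rose and PSME2 (23.5% of all genes), and below them at ERAP1 (30.3% of all genes, 53.8% in both directions). In a bulk sample fewer cells of a kind and less RNA per cell cannot be told apart.

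Among the catalytic subunits, PSMB10 had 6.41, 13.1 and 5.68 CPM in controls and 21.1, 109 and 67.6 CPM in knockdown replicates 1 to 3. All knockdown libraries were above all controls, replicate 1 least, and the gene rose 7.82-fold (8.40 ± 4.09 to 65.8 ± 43.8 CPM, log2 2.97, SE 0.68, edgeR adjusted p = 0.00806). PSMB9 had 0.496, 1.70 and 0.693 CPM in controls and 2.06, 6.13 and 6.41 CPM in the knockdown. It rose 5-fold (log2 2.32, SE 0.71, edgeR adjusted p = 0.0244), to a level that was still 4.86 ± 2.44 CPM. PSMB8 was too low to be tested, with 1, 0 and 0 counts in controls and 5, 15 and 13 in the knockdown. Its summed counts over library totals were 39.1 times higher in the knockdown (exact 95% counting interval 6.55 to 1592), and a fit with no filter on low counts gave an edgeR adjusted p of 0.00143 for it. The constitutive subunits rose as well: PSMB6 5.92-fold, PSMB5 4.87-fold and PSMB7 3.69-fold (edgeR adjusted p of 0.0059, 0.00962 and 0.0112).

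Of the PA28 genes, PSME1 had 59.7, 74.4 and 52.0 CPM in controls and 87.5, 223 and 179 CPM in the knockdown and rose 2.63-fold (log2 1.40, SE 0.48, edgeR adjusted p = 0.0400). PSME2 had 52.1, 67.8 and 45.8 CPM against 89.9, 71.1 and 127.5 CPM, so that its lowest knockdown library was just above its highest control (log2 0.80, edgeR adjusted p = 0.1691).

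Of the transporter genes, TAP2 had 82.3, 111.8 and 86.5 CPM in controls and 114.5, 338 and 306.5 CPM in the knockdown. Replicate 1 was barely above the highest control, and replicates 2 and 3 were far above it; the gene rose 2.70-fold (log2 1.43, SE 0.50, edgeR adjusted p = 0.0429). TAP1 had 18.9, 55.5 and 17.3 CPM against 32.6, 93.4 and 80.9 CPM. Its groups overlapped, because control replicate 2 was above knockdown replicate 1, and it did not pass (log2 1.17, edgeR adjusted p = 0.1443). Tapasin ranged from 59.4 to 219 CPM in controls and from 61.6 to 164 CPM in the knockdown, with an edgeR log2 fold change of -0.10 (95% interval -1.37 to 1.17).

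The trimming peptidases lay on the other side. ERAP1 had 24.4, 16.3 and 30.7 CPM in controls and 14.2, 5.43 and 4.01 CPM in the knockdown, below all controls (log2 -1.59, SE 0.61, edgeR adjusted p = 0.0574). ERAP2 was too low to be tested, with 10, 5 and 7 counts in controls and 3, 0 and 0 in the knockdown, a ratio of control over knockdown of 6.18 (exact 95% counting interval 1.86 to 32.3). ERAP1 and ERAP2 have the longest transcripts of the 10, at 5495 and 5705 bases against 782 to 2959 for the others, and the lowest GC content, at 39.7% and 40.5% against 52.2% to 60.1%. Levels in the knockdown libraries moved with both properties across all genes, as given above. With the trend over length and GC content removed, TAP2 and PSMB10 passed as higher and TAPBP as lower (log2 -1.19, edgeR adjusted p = 0.0173). PSMB9 (0.59, 0.3544) and PSME1 (0.26, 0.5332) no longer passed, and PSME2 (-0.43, 0.3411) and ERAP1 (0.65, 0.0881) changed sign (edgeR log2 fold change and adjusted p).

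Single libraries decided several of these calls. PSMB10 passed whichever library was left out (edgeR adjusted p 2.213e-05 to 0.0476), but not when replicates 2 and 3 were both left out (log2 1.35, edgeR adjusted p = 0.1096), where none of the 10 passed. TAP2 and PSME1 passed only without knockdown replicate 1; without any other library their edgeR adjusted p lay at 0.0764 to 0.1709 and 0.0695 to 0.1563. The call of PSMB9 ended when control replicate 1 (0.1257), control replicate 3 (0.1021), knockdown replicate 2 (0.0575) or knockdown replicate 3 (0.0575, edgeR adjusted p) was left out. Without knockdown replicate 1, 7 genes rose (TAP1, TAP2, PSMB8, PSMB9, PSMB10, PSME1 and PSME2) and ERAP1 fell, where 65.9% of all genes passed in either direction; PSMB8 entered that fit only through the knockdown libraries, so its call was bound to be a difference. With library totals alone in place of TMM, which moved the median of all genes to -0.92, only PSMB10 passed, and with upper-quartile factors PSMB9 and PSMB10 passed as higher and ERAP1 as lower. Epithelial markers summed to 6949 to 7567 CPM in controls and 14590 to 39630 CPM in the knockdown, and leukocyte markers to 30.2 to 79.1 and 42.9 to 115.7 CPM; their part in these rises was not tested.

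**Figure D3:**
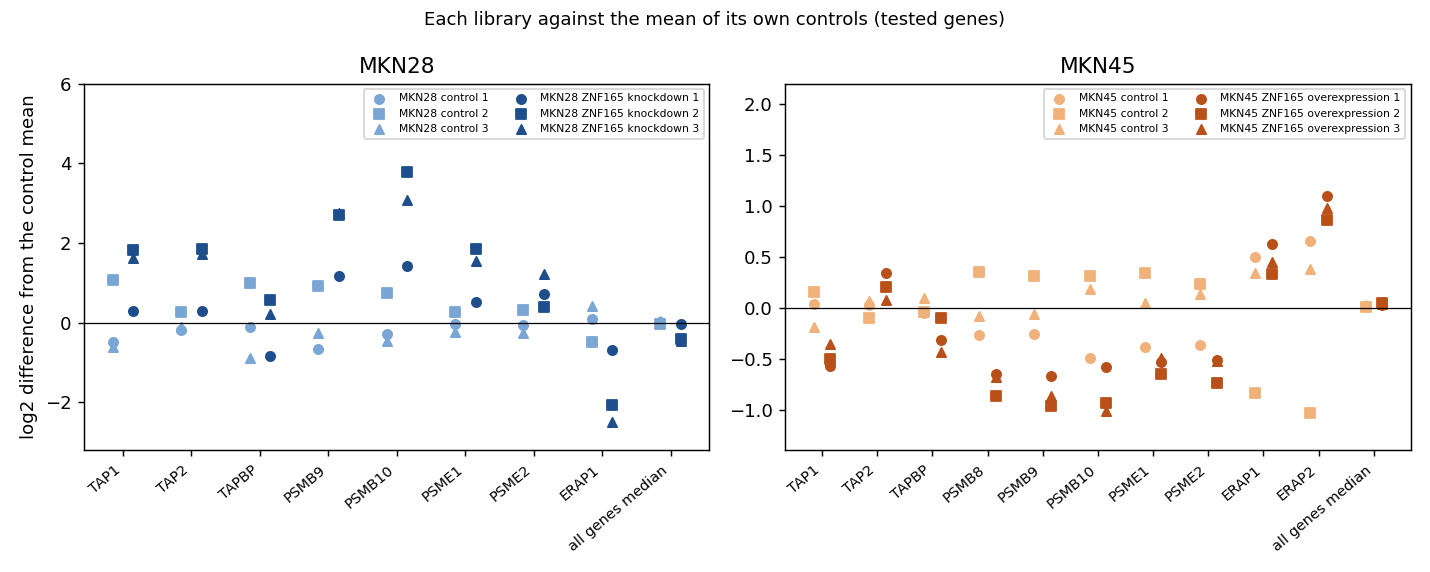
Log2 difference of each library from the mean of its own controls, for the tested genes and the median of all genes; the symbol shape gives the replicate number and the scales differ between panels. In MKN28 the knockdown libraries 2 and 3 lie further out than library 1 at PSMB10 (3.78 and 3.09 against 1.42); in MKN45 the overexpression libraries lie close together, between -1.01 and -0.59 for PSMB10.

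The overexpression comparison asks the same in MKN45 with more ZNF165. No gene of the 10 passed in either direction with edgeR, where 1.13% of all genes passed (0.935% higher and 0.196% lower). At an unadjusted p under 0.05 there were 6 lower (PSMB8, PSMB9, PSMB10, PSME1, PSME2 and TAP1) and 0 higher, where 13.4% of all genes were lower and 13.3% higher. DESeq2 called PSMB8, PSMB9 and PSMB10 lower (adjusted p of 0.042, 0.0262 and 0.0443) and 0 higher, and it called 11.6% of all genes. Under other settings that left out no library, their log2 fold changes shrank to as little as -0.39, -0.43 and -0.46. The edgeR adjusted p then went up to 0.579, 0.573 and 0.587. The overexpression libraries lay below all controls at 7 genes (18.7% of all genes) and above them at TAP2 and ERAP2 (19.4% of all genes, 38.1% in both directions). The median log2 fold change of the 10 was -0.54, against -0.00222 over all genes.

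PSMB8 had 109, 167 and 123 CPM in MKN45 controls and 83.1, 71.6 and 81.6 CPM in the overexpression libraries. These were below every control (log2 -0.76, SE 0.23, edgeR adjusted p = 0.0956). PSMB9 had 19.5, 28.99 and 22.4 CPM against 14.6, 11.9 and 12.7 CPM (log2 -0.85, SE 0.24, edgeR adjusted p = 0.0849). PSMB10 had 20.2, 35.6 and 32.4 CPM against 19.0, 14.8 and 14.1 CPM, with the lowest control just above the highest overexpression library (log2 -0.88, SE 0.28, edgeR adjusted p = 0.1032). The 3 subunits of the immunoproteasome thus had like values, and so did their constitutive counterparts, with -0.55 for PSMB5, -0.41 for PSMB6 and -0.73 for PSMB7 (edgeR adjusted p of 0.2093, 0.3958 and 0.1373).

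PSME1 and PSME2 had log2 fold changes of -0.59 and -0.61 (151 ± 37.1 to 100.4 ± 5.74 CPM and 119.8 ± 25.2 to 78.2 ± 6.61 CPM, edgeR adjusted p of 0.1535 and 0.1392). TAP1 had 78.7, 85.0 and 67.3 CPM in controls and 51.6, 54.0 and 59.9 CPM in the overexpression (-0.48, edgeR adjusted p = 0.1759), whereas TAP2 had 87.8, 80.3 and 90.3 against 109, 99.1 and 90.8 CPM (0.21, 95% interval -0.24 to 0.66). Tapasin went from 179 ± 10.3 to 148 ± 17.4 CPM (-0.28, edgeR adjusted p = 0.3852). ERAP2 had 100.9, 31.3 and 83.1 CPM in controls and 137, 116.7 and 126 CPM in the overexpression (0.82, edgeR adjusted p = 0.1986). Its spread came mostly from control replicate 2, which was also the lowest at ERAP1, with 14.0 CPM against 35.7 and 31.9 in the other controls. ERAP1 had a log2 fold change of 0.36 (edgeR adjusted p = 0.5017). No library left out in turn gave a call for any of the 10 genes, with the edgeR adjusted p of PSMB8, PSMB9 and PSMB10 between 0.0519 and 0.29.

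Ratios of genes within a library do not depend on scaling between libraries. For each immunoproteasome subunit the log2 ratio over the constitutive subunit it replaces was taken from counts plus 1 per kilobase, and with 3 libraries against 3 the exact two-sided permutation test cannot go below p = 0.1 (0.18 after adjustment over 18 ratio tests). In MKN45 controls PSMB8 was read 1.37, 1.26 and 1.49 times as much as PSMB5 per kilobase. In MKN28 controls PSMB5 had 2555, 3363 and 2461 counts where PSMB8 had 1, 0 and 0, so the added count sets the ratio there. The log2 difference of PSMB8 over PSMB5, knockdown minus control, was 2.11 with 1 added and 2.84 with 0.5 added (exact permutation p = 0.1). PSMB6 exceeded PSMB9 by 138, 64.8 and 114 times in MKN28 controls and by 115, 119.9 and 94.0 times in the knockdown, so the groups overlapped (log2 difference -0.12, exact permutation p = 0.8) although PSMB9 rose. PSMB7 exceeded PSMB10 by 34.5, 21.8 and 42.2 times in controls and by 42.2, 5.50 and 18.9 times in the knockdown (log2 difference 0.95, exact permutation p = 0.5). Replicates 2 and 3 had a smaller excess than every control, and replicate 1 was level with the highest control.

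In MKN45 the excess of PSMB6 over PSMB9 was 3.04, 4.15 and 3.12 times in controls and 5.08, 4.31 and 4.84 times in the overexpression, without overlap (log2 difference of PSMB9 over PSMB6 -0.48, exact permutation p = 0.1). PSMB8 over PSMB5 and PSMB10 over PSMB7 overlapped (-0.21 and -0.16, exact permutation p of 0.2 and 0.6). Between the control lines all 3 ratios were apart, with log2 differences of 11.35 for PSMB8 over PSMB5 (12.15 with 0.5 added), 4.89 for PSMB9 over PSMB6 and 2.43 for PSMB10 over PSMB7 (exact permutation p = 0.1 each).

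**Figure D4:**
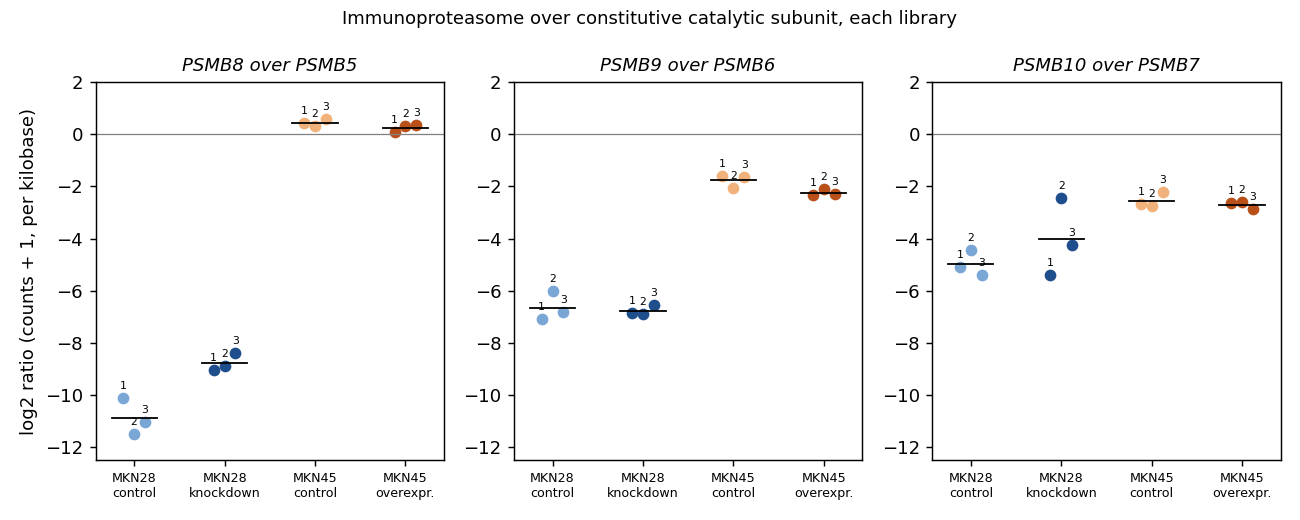
Log2 ratio of each immunoproteasome subunit over the constitutive subunit whose place it takes, per library (numbered points) with group means (bars); 0 means equal counts per kilobase. MKN45 libraries lie above 0 for PSMB8 over PSMB5 and MKN28 libraries at -8.41 or lower, where the MKN28 control points are set by the added count.

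Partner genes kept different balances. TAP1 per kilobase was lower than TAP2 in every library, 5.14, 2.39 and 5.90 times lower in MKN28 controls and 4.16, 4.28 and 4.48 times in the knockdown (log2 difference of the ratio -0.05, exact permutation p = 1). In MKN45 it was 1.32, 1.12 and 1.59 times lower in controls and 2.51, 2.17 and 1.80 times in the overexpression, without overlap (-0.69, exact permutation p = 0.1). PSME1 over PSME2 stood at 1.53 to 1.60 in MKN28 controls and at 1.65 to 1.89 in MKN45 controls, without overlap (log2 difference 0.16, exact permutation p = 0.1). It was 1.73 to 1.86 in the overexpression and 1.36, 4.38 and 1.96 in the knockdown. ERAP1 was read 55.9, 66.8 and 92.0 times as much as ERAP2 per kilobase in MKN28 controls, whereas ERAP2 was read 2.72, 2.14 and 2.51 times as much as ERAP1 in MKN45 controls and 3.39, 3.54 and 3.53 times in the overexpression (log2 difference -0.51, exact permutation p = 0.1).

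The effect of more ZNF165 was compared between lines in a fit of all 12 libraries, as the overexpression effect in MKN45 minus the reverse of the knockdown effect in MKN28. It differed for PSMB8 (log2 4.997, SE 1.01, edgeR adjusted p = 0.00809) and TAP2 (1.69, SE 0.55, edgeR adjusted p = 0.0467), both more positive in MKN45; 17.5% of all genes passed, 8.09% more positive and 9.38% more negative. No gene of the 10 passed as more negative, and at an unadjusted p under 0.05 it was 3 more positive and 0 more negative (15.9% and 19.1% of all genes). DESeq2, which called 27.4% of all genes, also called 0 more negative. Over DESeq2 and the other settings that left out no library, 1 to 3 were more positive. PSMB10 lay nearest to the threshold among the others (2.12, edgeR adjusted p = 0.0639). PSMB8 passed the filter on low counts in this fit only through the MKN45 libraries, and its difference rests on 34 counts in the 6 MKN28 libraries. The call of TAP2 held only without MKN28 control replicate 2 or knockdown replicate 1, and lay at an edgeR adjusted p of 0.073 to 0.1214 without any other library; with the replicate block it was lost (log2 1.56, edgeR adjusted p = 0.0637). The arms share no library. Of the 8 genes tested in both, 5 had a positive fold change in the knockdown and a negative one in the overexpression (TAP1, PSMB9, PSMB10, PSME1 and PSME2), ERAP1 the reverse, and TAP2 and TAPBP the same sign; of all genes tested in both, 34.4% were positive then negative and 72.7% had opposite signs.

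The rest of the pathway was read from lists chosen by function, and their counts stand against 19.2% of all genes higher and 21.6% lower in the knockdown. There, all 3 constitutive catalytic subunits rose, with a median log2 fold change of 2.28 against -0.20 over all genes. Of 11 other subunits of the proteasome core, 4 rose, 0 fell and 7 did not pass (median 0.46). Among those that did not pass, PSMA2 to PSMA6 lay above all controls in knockdown replicate 1 and below them in replicates 2 and 3. PSMA6 had 324 CPM in replicate 1 and 29.5 and 25.0 CPM in replicates 2 and 3, with 84.6, 87.2 and 103.6 CPM in controls. PSMB3 rose 8.31-fold (165 ± 26.4 to 1374 ± 571 CPM), PSMB2 4.03-fold, PSMA7 3.74-fold and PSMB4 3.39-fold. Of 8 other activators, inhibitors and assembly factors, 3 rose and 1 fell (median 1.15). The assembly chaperones PSMG3 and PSMG4 rose 8.23-fold and 8.02-fold and PSMF1, an inhibitor of the proteasome, 3.75-fold, while PSME4, which encodes the activator PA200, fell 14.5-fold (177 ± 76.9 to 12.1 ± 11.2 CPM). For the genes of these lists, fits with a library left out or with the trend over length and GC content removed were not read.

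Of 9 loading chaperones and class I chains, 7 were tested in the knockdown, 3 rose and 0 fell (median 1.40). They were HLA-E (4.51-fold), HLA-B (3.67-fold) and CALR, the chaperone calreticulin (2.63-fold, 1112 ± 353 to 2925 ± 931 CPM); HLA genes share sequence, so reads could be split among them. Of 7 other peptidases 6 were tested, 1 rose and 2 fell (median -1.57): THOP1, which degrades cytosolic peptides, rose 6.66-fold, LNPEP, a peptidase of endosomes related to ERAP1, fell 9.12-fold and TPP2, a large cytosolic peptidase, fell 4.25-fold. Of 14 regulators 2 rose and 2 fell (median -0.45), shares below those of all genes. RELA, a subunit of NF-kB, rose 3.93-fold and IRF1 3.59-fold (25.98 ± 15.2 to 93.4 ± 27.03 CPM), whereas IRF2 fell 3.98-fold (24.6 ± 3.01 to 6.13 ± 5.21 CPM). NLRC5 had 43, 46 and 40 counts in controls and 33, 16 and 18 in the knockdown, a scaled log2 fold change of 0.08. In the overexpression 0 of the 52 listed genes passed with edgeR (5 higher and 12 lower at an unadjusted p under 0.05, against 13.3% and 13.4% of all genes); NLRC5 was the nearest among the named regulators, at 10.8 ± 0.421 CPM in controls and 19.6 ± 0.361 CPM in the overexpression (log2 0.86, edgeR adjusted p = 0.0684), and IRF1 had -0.65 (edgeR adjusted p = 0.141). The loading list had a median of -0.66 there and the constitutive catalytic subunits -0.55.

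**Figure D5:**
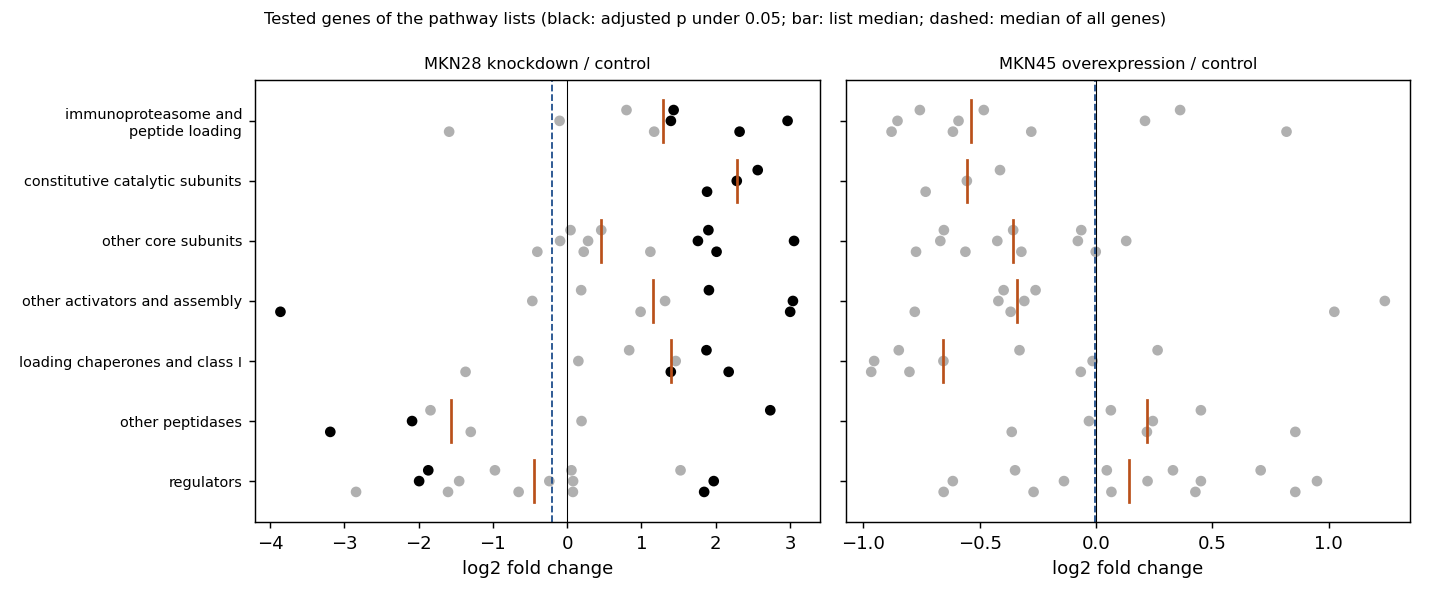
Fitted log2 fold changes of the tested genes in each pathway list, 1 point per gene, black where the edgeR adjusted p is under 0.05, with the list median (bar) and the median of all genes (dashed line); the horizontal scales differ. In the knockdown the constitutive catalytic subunits stand at a median of 2.28 and the 8 tested genes of the immunoproteasome and peptide loading set at 1.28.

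Over all 12 libraries the 10 genes did not share a single profile. Pearson's r of each gene's log2 CPM with the mean of their standardized profiles was 0.92 for TAP1, 0.9 for PSMB9, 0.81 for PSME1, 0.76 for PSMB10, 0.73 for PSMB8, 0.72 for PSME2 and 0.67 for TAPBP, but 0.27 for TAP2 and for ERAP2 and -0.43 for ERAP1. Each gene is part of that mean. Among pairs, PSMB10 and PSME1 had an r of 0.98 and PSMB8 and PSMB9 of 0.93, while TAP2 and ERAP1 had -0.86. The 12 points share lines and library composition, so these values are descriptions. The genes outside the set most like the mean profile, among 14893 with a mean of at least 1 CPM, were IGFBP4 (r = 0.98), QSOX1 and DAP (0.97 each), EEF2 (0.97) and CMC1 (0.97), where the median gene had -0.04. IGFBP4, a binding protein of insulin-like growth factors, had 1230 to 3322 counts in MKN28 controls, 1985 to 6413 in the knockdown, 8146 to 9579 in MKN45 controls and 5793 to 6471 in the overexpression.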

How the data were processed

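RNA-seq read counts of 12 libraries, 3 in each of 4 groups, were analysed. The authors deposited whole-number counts per Ensembl gene, and all sample columns were used; HISAT2 and StringTie are named in the submitters' processing notes. Not given in the sources used here: build, annotation, counting tool, strand setting. Symbols matched 49659 and GENCODE 29 matched 50076 of 50868 identifiers; 20369 had no count in any library. Replicates differed by far more than counting error (chi-square per degree of freedom 19.5 to 417).

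Each comparison was fitted on its own 6 libraries with edgeR 4.0.16 (R 4.3.3): TMM factors, filterByExpr (minimum count 10, minimum total 15), quasi-likelihood test, Benjamini-Hochberg adjustment over all genes tested, threshold 0.05. All 12 libraries entered the test between lines' effects. On simulated counts the test recovered most of the seeded changes. Those counts had independent spread and no outlying library, so they do not show how the test does on these libraries. Scaled CPM, SD and fold changes were computed from the deposited counts; coordinates and transcript lengths are those of GENCODE 29, and promoter windows those of RefSeq. Intervals on ratios of counts are exact (95%) and cover counting error only, like the floor of 3 counts.

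Groups and replicate numbers came from the labels. The deviations of same-numbered control libraries of the lines correlated at r = 0.264, 0.507 and 0.281. MKN45 control replicate 1 was, however, most like MKN28 control replicate 3, so whether the numbers pair them is open. The block is an alternative, and its values are given where they change a call. Alternatives were other scalings, DESeq2 1.42.0, no filter, a smooth trend over length and GC content removed (mgcv 1.9.3), the replicate block, a fit of all libraries, and libraries left out. Named genes are the 10 members, PSMB5, PSMB6 and PSMB7, up to 4 genes past the threshold per fixed list, NLRC5, IRF1, ZNF165 and the 5 most alike in profile; CORO1A, LAPTM5, PTPRC and CAST were named after their values were seen, and some genes that the rule names are not reported here. Members and lists were chosen with earlier results of these data known. Fibroblast markers, mostly COL1A1, summed to 18.6 to 122 CPM over all libraries.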

Additional observations from a re-analysis of the deposited data

Results flagged for a closer look

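The effect of more ZNF165 differed between the lines at 2 of the 10 genes in the fit of all 12 libraries. For PSMB8 the log2 difference, MKN45 minus MKN28, was 4.997 (edgeR adjusted p = 0.00809): it had 33 counts in the MKN28 knockdown against 1 in its controls, and its log2 fold change in the MKN45 overexpression was -0.76. It passed the filter on low counts only through the MKN45 libraries and was too low to be tested in MKN28 alone. For TAP2 it was 1.69 (edgeR adjusted p = 0.0467): it rose in the MKN28 knockdown in 3 of 3 libraries and had a log2 fold change of 0.21 in the MKN45 overexpression. The adjusted p of PSMB8 ran from 0.000176 to 0.026 with each library left out, and that of TAP2 between 0.000619 and 0.1214. With the replicate block the call of TAP2 was lost (log2 1.56, edgeR adjusted p = 0.0637).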

How the results depend on the processing

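The number of the 10 genes past the threshold in the knockdown was the least stable. As reported it was 4 higher and 0 lower. Library totals alone gave 1 higher. It was 2 higher and 1 lower with upper-quartile factors, and 2 higher and 1 lower with the length and GC trend removed. It was 1 higher and 1 lower with the replicate block and that trend removed together, and 0 higher with knockdown replicates 2 and 3 left out. With DESeq2, with the replicate block and in the fit of all 12 libraries it was 1 lower, and none of these gave more than 5 higher. With single libraries left out it was 1 to 7 higher and 0 to 1 lower. In the overexpression DESeq2 gave 3 lower. Between control lines 1 gene, TAP2, was lower with the length and GC trend removed, with or without the block, and 3 to 7 were higher with single libraries left out. In the test between the lines' effects, library totals alone and the replicate block gave 1 higher, and single libraries left out 1 to 5 higher and 0 to 1 lower. Knockdown libraries did not deviate together by number (r = 0.291, 0.431 and -0.357), nor did those of the overexpression (-0.0553, -0.0547 and 0.0867).

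Some log2 values changed sign. In the knockdown TAPBP had 0.09 with RLE factors and with DESeq2 (0.0883), -0.47 to 0.55 with single libraries left out (0.55 without control replicate 2) and 0.32 without knockdown replicate 1. With the trend removed, without and with the block, PSME2 had -0.43 and -0.55 and ERAP1 0.65 and 0.66. In the overexpression ERAP1 had -0.25 (-0.2462 and -0.2503) under those settings and TAPBP 7.417e-05 with the block. Between control lines TAPBP had -0.09155 and -0.01157 and ERAP1 0.13 under them, and TAPBP ran from -0.22 to 0.87 (also -0.01365) and ERAP1 from -0.38 to 0.14 (also 0.06) with single libraries left out. Between the lines' effects, library totals alone gave -0.09381 for TAP1 and -0.46 for PSME2, the trend removed gave -0.55 for PSME2, 0.29 for ERAP1 and 0.28 for ERAP2, and single libraries left out gave -0.07063 to 0.44 for PSME2 and -0.77 to 0.34 for TAPBP. Of the ratios, the knockdown ERAP1 over ERAP2 had 0.14 with 0.5 added to counts. With single libraries left out, PSMB9 over PSMB6 had -0.34 to 0.2024 and TAP1 over TAP2 -0.2981 to 0.35 in the knockdown, and PSMB10 over PSMB7 had -0.26 to 0.00605 and PSME1 over PSME2 -0.01129 to 0.08584 in the overexpression. The cause of these changes was not tested.

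Over all genes 6092 passed in the knockdown, 2642 without control replicate 1, 3171 without control replicate 3, 10378 without knockdown replicate 1 and 3352 with replicate 1 alone. The share of higher calls was 47%; it came to 25.1% under library totals alone and to 57.9% after removal of the trend. In the overexpression 179 passed, 1834 with DESeq2, 1268 with the trend removed, 8 with the replicate block, 3 in the fit of all libraries and 1 to 1338 with single libraries left out. Depth limits PSMB8 and ERAP2 in MKN28, where 3 counts are 0.161 to 0.248 CPM.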
